A study of Homo sapiens with 2 samples.

Results

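Cytochrome P450 genes were described here from peak lists of CUT&Tag, an assay in which a transposase tethered by antibodies cuts and tags chromatin at the bound sites, made in PLC8024, a liver cancer cell line. The members were every protein-coding gene whose symbol is CYP followed by a digit, apart from CYP51A1. RefSeq holds 55 such genes among 20056 protein-coding genes, and 31 of the 55 had at least 1 peak annotated to them. The drug group was 1 library of PLC8024 cells given a drug at 10 nM for 6 h, and the control group was 1 library of PLC8024 cells labelled control. Neither the drug nor the antibody is named in the labels, although the series title names KIF11, a mitotic kinesin, so what a peak marks at these genes is not given. The IgG and Pol II control groups of the design were not analysed here. Each group had 1 library, so no difference between drug and control has a replicate check and no p-value is given.

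Cytochrome P450 enzymes are haem proteins that insert an oxygen atom into fatty, hormonal and foreign compounds. Those of families CYP1, CYP2 and CYP3 oxidise most medicines and many carcinogens in the liver, others hydroxylate fatty acids and eicosanoids, and further families build or break down sterols, bile acids, vitamin D and retinoic acid. In hepatocytes the drug-metabolising genes are switched on by nuclear receptors and the aryl hydrocarbon receptor, and liver cancer cell lines are known to express many of them weakly. By their best known substrates the 55 genes fell into 21 drug-metabolising, 14 fatty acid, 12 sterol and 7 vitamin D or retinoid genes, and the orphan CYP20A1.

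The 250 bases before the start site are shown for 7 genes, because P450 windows with and without a peak differed in base composition. CYP1A1, CYP2R1, CYP39A1 and CYP20A1 had a peak on the window in both libraries, CYP2U1 had one in the control library alone, and CYP3A4 and CYP2C8 had none. Sequences are from RefSeq, build GRCh38.p14, 5′ to 3′ on the gene's strand: chr15:74725529-74725778 (minus) for CYP1A1, chr11:14892232-14892481 (minus, from an inner RefSeq start) for CYP2R1, chr6:46652819-46653068 (minus) for CYP39A1, chr2:203238768-203239017 (plus) for CYP20A1, chr4:107931299-107931548 (plus) for CYP2U1, chr7:99784185-99784434 (minus) for CYP3A4 and chr10:95069498-95069747 (minus) for CYP2C8. Capitals mark 3 motifs searched on both strands: the TATA box core TATAAA, the GC box GGGCGG of SP1-like factors, and TNGCGTG, the core bound by the aryl hydrocarbon receptor with ARNT. No capitals of different motifs overlap in these 7 windows.
CYP1A1: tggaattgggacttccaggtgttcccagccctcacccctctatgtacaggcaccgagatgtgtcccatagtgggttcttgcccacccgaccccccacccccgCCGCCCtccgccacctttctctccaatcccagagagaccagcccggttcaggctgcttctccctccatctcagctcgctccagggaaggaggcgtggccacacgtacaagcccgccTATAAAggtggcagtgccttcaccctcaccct
CYP2R1: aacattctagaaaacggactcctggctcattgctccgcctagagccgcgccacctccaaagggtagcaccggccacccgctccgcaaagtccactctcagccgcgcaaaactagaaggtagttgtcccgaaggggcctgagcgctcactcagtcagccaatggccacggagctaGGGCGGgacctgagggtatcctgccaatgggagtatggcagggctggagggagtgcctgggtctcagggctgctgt
CYP39A1: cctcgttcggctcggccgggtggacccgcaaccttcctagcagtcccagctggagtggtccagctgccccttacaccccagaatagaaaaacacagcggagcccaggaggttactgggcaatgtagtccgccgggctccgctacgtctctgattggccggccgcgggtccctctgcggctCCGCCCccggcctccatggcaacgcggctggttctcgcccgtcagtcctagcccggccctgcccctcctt
CYP20A1: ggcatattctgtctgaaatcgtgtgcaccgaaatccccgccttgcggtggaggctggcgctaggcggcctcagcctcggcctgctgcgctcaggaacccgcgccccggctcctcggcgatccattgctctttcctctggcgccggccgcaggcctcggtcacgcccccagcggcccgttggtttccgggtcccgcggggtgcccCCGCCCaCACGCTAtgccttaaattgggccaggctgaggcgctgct
CYP2U1: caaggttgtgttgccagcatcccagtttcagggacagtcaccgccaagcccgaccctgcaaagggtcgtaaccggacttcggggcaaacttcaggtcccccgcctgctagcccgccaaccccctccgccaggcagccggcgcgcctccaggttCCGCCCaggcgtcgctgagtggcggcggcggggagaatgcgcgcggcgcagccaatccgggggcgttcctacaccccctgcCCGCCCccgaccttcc
CYP3A4: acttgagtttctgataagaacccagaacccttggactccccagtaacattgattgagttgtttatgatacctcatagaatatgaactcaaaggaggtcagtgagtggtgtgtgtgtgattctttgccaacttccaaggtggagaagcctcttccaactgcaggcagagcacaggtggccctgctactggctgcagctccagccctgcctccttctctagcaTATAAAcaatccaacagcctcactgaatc
CYP2C8: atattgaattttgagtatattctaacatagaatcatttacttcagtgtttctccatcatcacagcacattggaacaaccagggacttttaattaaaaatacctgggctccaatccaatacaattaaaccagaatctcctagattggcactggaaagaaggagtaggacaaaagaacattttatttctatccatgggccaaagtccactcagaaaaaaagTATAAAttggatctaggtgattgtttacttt

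The printed windows differ in base composition. TATAAA began at -32 in CYP1A1, at -29 in CYP3A4 and at -31 in CYP2C8, counted back from the start, and was absent from the other 4 windows. The CYP2C8 window was 34% G+C with 0 CpG dinucleotides and the CYP3A4 window 48.0% with 0, against 70.4% with 25 in CYP2U1 and 69.2% with 26 in CYP20A1. That of CYP2C8 had the lowest G+C of the 52 member windows. Some windows not printed went the other way. The CYP4F3 window had peaks with 50.8% and 2 CpG, and a CYP4F11 window had a control peak with 55.2% and 0. CYP27A1, with 68.8% and 24, and CYP26C1, with 66.4% and 27, had none. CYP20A1 held the single TNGCGTG match of the 52 member windows, at -39 on the opposite strand. Bases farther than 250 before the start were not searched, at CYP1A1 or any other gene. Among all 22199 protein-coding windows of this length, 9% held TATAAA, 53.7% held GGGCGG and 5.20% held TNGCGTG. RefSeq windows were matched for 39 of the 55 genes. Among the 16 without one were CYP11B1, CYP11B2, CYP1B1, CYP24A1, CYP27B1, CYP2C18, CYP2D6, CYP2F1, CYP46A1, CYP4A11, CYP4A22, CYP4F12, CYP7A1, CYP7B1 and CYP8B1.

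Peak scores are the authors' own, and a higher score is a stronger call within its list. They started at 13 in both lists, and a score in one library was not compared in size with a score in the other, because the depth of neither library is known and the lists differ in length. The drug list held 37 P450 peaks of 29283 and the control list 62 of 49854, or 0.126% of the drug list and 0.124% of the control list. Overlap between the lists meant 1 or more shared bases. Of 12 liver markers, 7 had a peak within 1 kb of the start in drug cells and 7 in control cells. Of all protein-coding genes 40.3% had such a start peak in drug cells and 49.3% in control cells. These few markers do not establish cell identity. KRT8 had the highest start peak of the liver markers, with a score of 205 in drug cells and 1281 in control cells. ALB, AFP, TTR, APOA1 and FGB had no start peak in either list. Of 6 blood markers LYZ alone had a start peak, at 59 in drug cells and 223 in control cells. Of 6 fibroblast and endothelial markers COL1A2 alone had one, at 15 in drug cells, with none in control cells.

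P450 genes carried start-site peaks less often than protein-coding genes in general in both libraries, as shares whose intervals lay below the share of all genes. A peak of any class was annotated to 22 of the 55 genes in drug cells, which is 40.0% (exact 95% interval 27.0 to 54.1), where 56.3% of all protein-coding genes had one. In control cells 29 genes had one, which is 52.7% (38.8 to 66.3), where the share of all genes was 64.8% and within that interval. Promoter-class peaks, which the authors' annotation places around the start, were found at 5 genes in drug cells, or 9.09% (3.02 to 20), against 35.2% of all genes. In control cells 9 genes had one, or 16.4% (7.77 to 28.8), against 39.9% of all genes. Within 1 kb of the annotated start, 8 genes had a peak in drug cells (14.5%, 6.50 to 26.7), against 40.3% of all genes. In control cells 14 did (25.5%, 14.7 to 39.0), against 49.3% of all genes. The intervals are Clopper-Pearson intervals and cover counting error only, and neighbouring P450 genes share their region.

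The same was seen by position alone, whatever gene the authors named for a peak. A drug peak touched the RefSeq promoter window, 250 bases before to 50 after a start, of 6 of the 39 genes that have one, or 15.4% (5.86 to 30.5), against 47.2% of all genes with a window. A control peak did so for 10 of 39, or 25.6% (13.0 to 42.1), against 57.1% of all. The 6 touched in drug cells were CYP1A1, CYP20A1, CYP2R1, CYP39A1, CYP4F3 and CYP4V2, and the same 6 were touched in control cells with CYP26A1, CYP2S1, CYP2U1 and CYP4F11. CYP39A1, an oxysterol hydroxylase of bile acid synthesis, had no peak under its own name: the peak on its window was annotated to the neighbouring SLC25A27, with a score of 51 in drug cells and 356 in control cells. CYP4V2 had a drug peak with a score of 26 that was annotated to FLJ38576 and a control peak with a score of 17 annotated to CYP4V2 itself.

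P450 windows with and without a control peak differed in base composition, and so did all windows. The 13 member windows touched in control cells had a median of 67.6% G+C and 21 CpG dinucleotides, and the 39 not touched had 52.8% and 3. GGGCGG was present in 9 of the 13 touched and 10 of the 39 untouched windows, and TATAAA in 1 of the 13 and 17 of the 39. Over all protein-coding windows, the 11123 touched in control cells had a median of 65.6% G+C and 22 CpG and the 11076 not touched 55.6% and 6, with GGGCGG in 70.9% of the touched and 36.5% of the untouched, and TATAAA in 4.53% of the touched and 13.5% of the untouched. TATAAA was most frequent in the drug-metabolising class, where 12 of 16 windows held it (75.0%). It was present in 2 of 13 fatty acid windows, 1 of 12 sterol windows and 3 of 9 vitamin windows. Some genes have several windows, and many of the sterol windows belong to CYP19A1 alone. By gene, 12 of 16 drug-metabolising, 2 of 11 fatty acid, 1 of 6 sterol and 3 of 5 vitamin genes held TATAAA. CYP3A7 and the readthrough gene CYP3A7-CYP3A51P share a window, which these counts hold for each gene. Counted once, it leaves 11 of 15 drug-metabolising windows with TATAAA (73.3%), and 16 of 38 untouched member windows. The median G+C was 50% in drug-metabolising windows, 55.2% in fatty acid windows, 54.2% in sterol windows and 62.8% in vitamin windows. CYP1A1 was the one member whose window had both TATAAA and a peak.

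**Figure D1:**
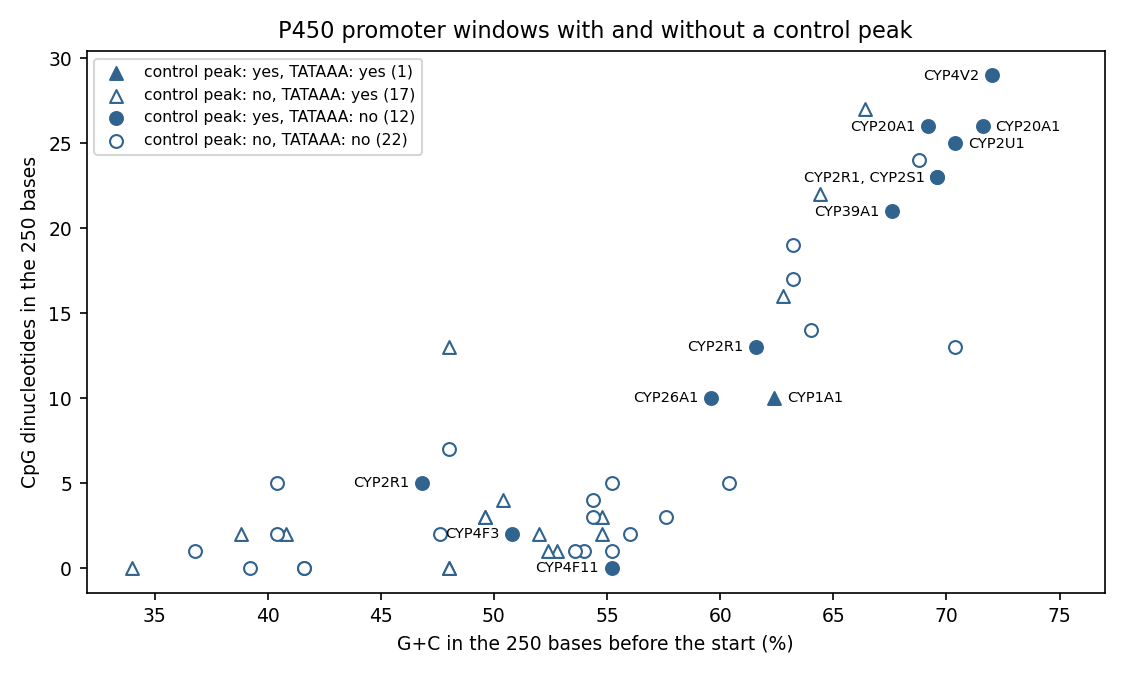
Each point is 1 of the 52 RefSeq P450 promoter windows, plotted by its G+C content in percent (x) and its number of CpG dinucleotides (y) in the 250 bases before the start. Filled points were touched by a control peak and triangles hold TATAAA. The 13 filled points have a median of 21 CpG and the 39 open points of 3, and CYP1A1 is the single filled triangle.

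P450 peaks were more often intergenic than protein-coding peaks in general. Intergenic peaks were 45.9% of P450 peaks in drug cells (29.5 to 63.1), where they were 18.8% of all protein-coding peaks, and 40.3% in control cells (28.1 to 53.6), where they were 17.6% of all. In drug cells 10 of the 37 peaks lay within 1 kb of the start of the gene they were annotated to, 8 lay between 1 and 10 kb and 19 beyond 10 kb. In control cells 16 of 62 lay within 1 kb, 17 between 1 and 10 kb and 29 beyond. All 8 of the drug peaks between 1 and 10 kb belonged to drug-metabolising genes, as did 10 of the 17 control peaks there. These genes held 18 of all 37 drug P450 peaks and 24 of all 62 control P450 peaks. The share of all protein-coding peaks between 1 and 10 kb was not computed. The share within 1 kb was 27.0% in drug cells (13.8 to 44.1), where it was 42.1% of all protein-coding peaks, and 25.8% in control cells (15.5 to 38.5), where it was 31.6% of all, and both intervals held the share of all peaks. Beyond 10 kb lay 51.4% in drug cells, where 41.3% of all did, and 46.8% in control cells, where 46.6% of all did. P450 peaks near a start also had low scores for their place. Within 1 kb, the median score was 67.5 for the P450 peaks in drug cells, where all protein-coding peaks there had 128, and 110 in control cells, where all had 297. Beyond 1 kb the order was the other way, with a P450 median of 59 in drug cells, where all had 39, and of 83.5 in control cells, where all had 62. By the authors' classes the drug peaks were 17 intergenic, 8 intron, 7 promoter, 4 exon and 1 3′UTR. The control peaks were 25 intergenic, 16 intron, 11 promoter, 4 exon, 4 3′UTR, 1 5′UTR and 1 transcription end site. Promoter peaks were 18.9% in drug cells (7.96 to 35.2), where they were 34.9% of all protein-coding peaks, and 17.7% in control cells (9.20 to 29.5), where they were 23.5% of all. In drug cells 15 of 37 peaks touched the body of the P450 gene itself, 6 touched the body of another protein-coding gene alone and 16 touched no protein-coding gene. In control cells 27 of 62 touched their own gene, 11 another protein-coding gene alone and 24 no protein-coding gene. Bodies of non-coding genes and pseudogenes were not checked.

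**Figure D2:**
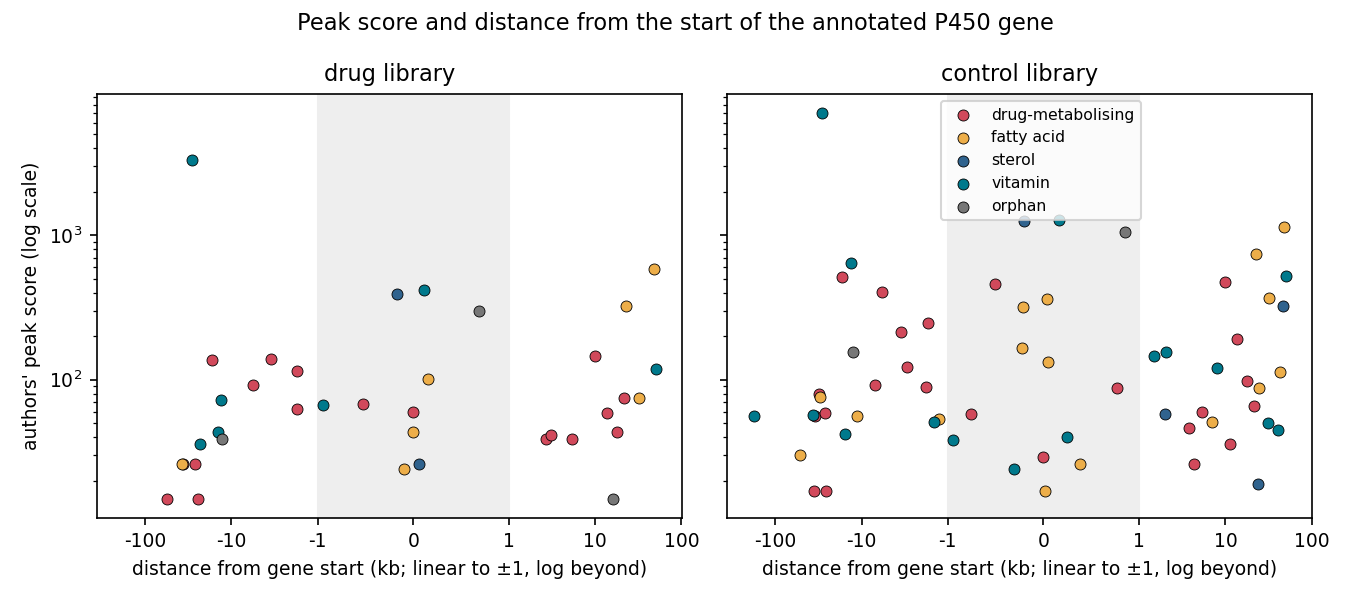
Each point is a P450 peak, with its distance in kb from the start of the gene it was annotated to (x, linear within 1 kb and logarithmic beyond) and the authors' score (y, log scale), in drug cells at left and control cells at right. The grey band holds the 10 drug and 16 control peaks within 1 kb, and the highest point in both panels is the CYP26C1 peak in an intron of EXOC6.

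P450 peaks were shared between the lists about as often as other peaks. Of the 37 drug peaks 27 were overlapped by a control peak, which is 73.0% (55.9 to 86.2), where 71.9% of all protein-coding drug peaks were. Of the 62 control peaks 27 were overlapped by a drug peak, which is 43.5% (31.0 to 56.7), where 40.2% of all were. Near a start, within 1 kb, 8 of 16 control peaks were overlapped (50%, 24.7 to 75.3), against 71.6% of all such peaks, a share inside that interval. Beyond 1 kb 19 of 46 were (41.3%, 27.0 to 56.8), against 25.7% of all, a share below that interval. Overlap was more frequent at higher scores, as in the whole list. Among control peaks with scores under 50, 2 of 15 P450 peaks were overlapped and 5.72% of all. From 50 to under 200, 8 of 29 were and 26.9% of all. At 200 or more, 17 of 18 were and 94.7% of all, the exception being a CYP46A1 peak 46 kb past its start. By gene, 20 had a peak in both lists, 2 in the drug list alone (CYP2A13 and CYP11A1), 9 in the control list alone and 24 in neither. The shares of all protein-coding genes in these groups were not computed.

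**Figure D3:**
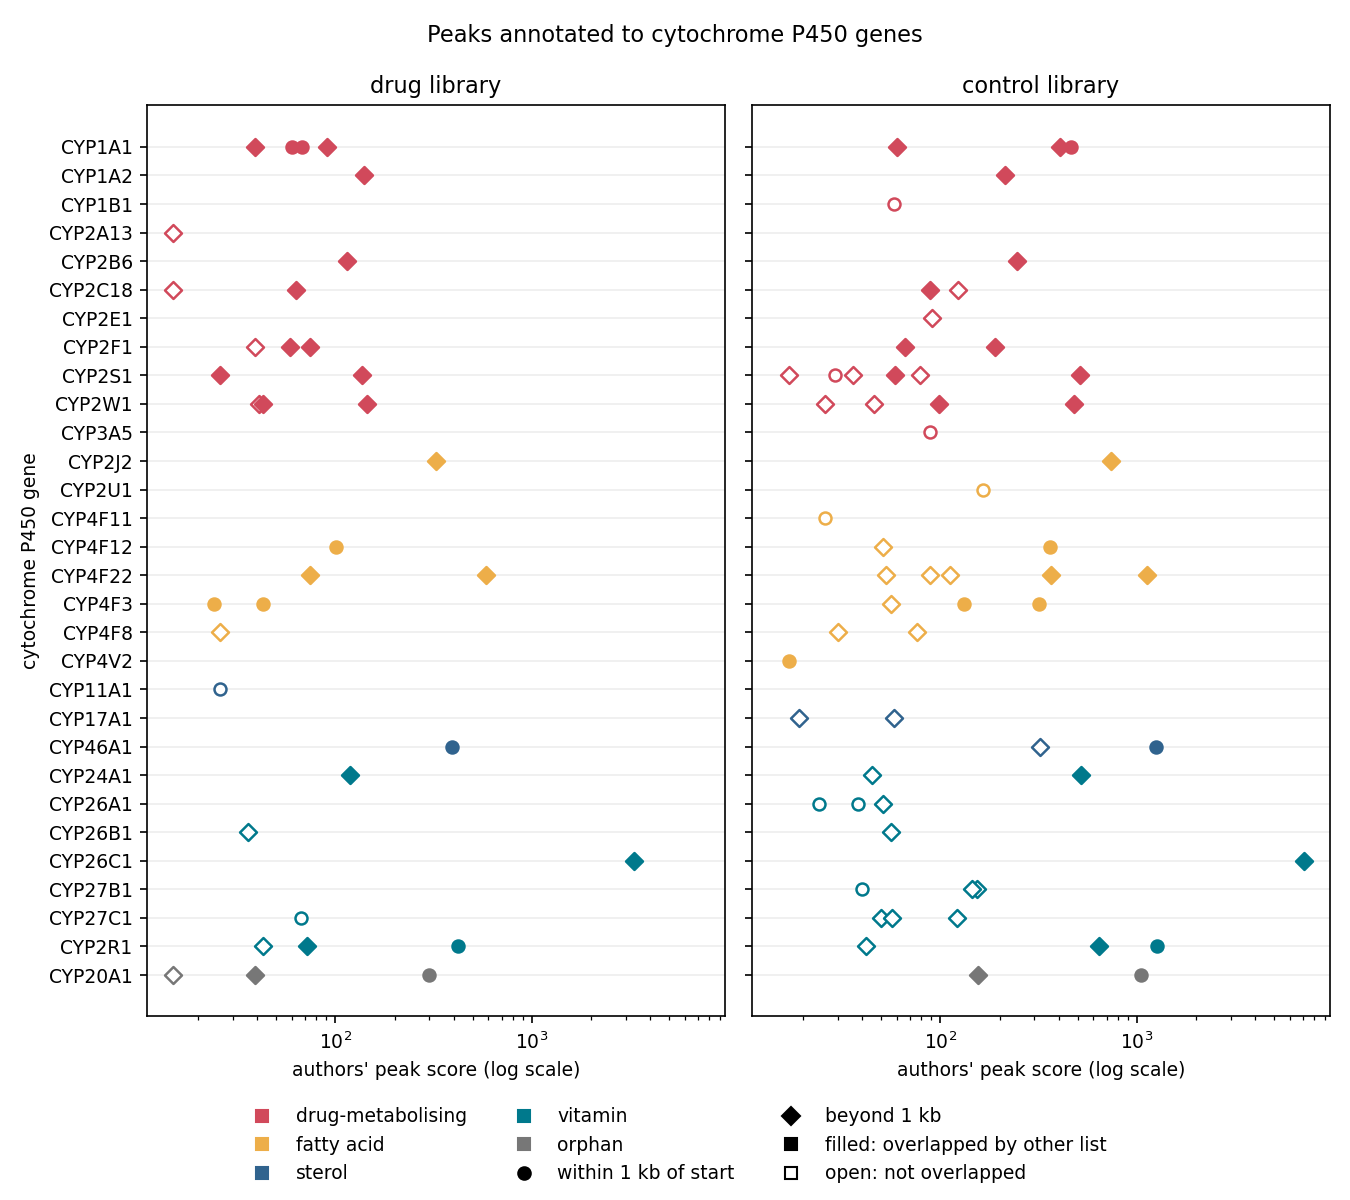
Each symbol is a peak at its authors' score (x, log scale) on the row of the P450 gene it was annotated to, for drug cells at left and control cells at right. Colours give the class, circles lie within 1 kb of the start, and filled symbols were overlapped by a peak of the other list. Open symbols were found in 1 list alone, and most of them have low scores.

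Drug-metabolising and sterol or vitamin genes had different shares of control peaks with a drug partner, with overlapping intervals. Of 24 control peaks at drug-metabolising genes 13 were overlapped by a drug peak, which is 54.2% (32.8 to 74.4). Of 20 control peaks at the 19 sterol and vitamin genes 5 were, which is 25.0% (8.66 to 49.1). The 24 peaks came from 11 genes and the 20 from 9, and the intervals treat peaks of 1 gene as independent. CYP26A1, CYP27B1 and CYP27C1 had 3 control peaks each, none of them overlapped, while all 3 of CYP1A1 were overlapped. Shortening the control list by score to the drug list's length gave 55.6% (21.2 to 86.3) at sterol and vitamin genes. At drug-metabolising genes the share was then 71.4%, so the gap of 29.2 points became 15.8. The share of all protein-coding peaks at that length was not computed. In the full lists the fatty acid genes lay between, with 7 of 16 (43.8%, 19.8 to 70.1). Read the other way, 14 of 18 drug peaks at drug-metabolising genes had a control partner (77.8%, 52.4 to 93.6), as did 5 of 9 at sterol and vitamin genes (55.6%, 21.2 to 86.3). The unpaired control peaks of the sterol and vitamin genes had a median score of 51 and the paired ones of 1249. At drug-metabolising genes the unpaired had 56 and the paired 190. By the names the authors' annotation gave, 5 of the 7 vitamin genes had a drug peak and all 7 a control peak, as did 2 of the 12 sterol genes in drug cells and 2 in control cells, where 56.3% of all protein-coding genes had a drug peak and 64.8% a control peak. Some of these peaks lay far away or in another gene, and within 1 kb of the start 2 of the 7 vitamin genes had a drug peak and 3 a control peak, as did 2 of the 12 sterol genes in drug cells and 1 in control cells.

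**Figure D4:**
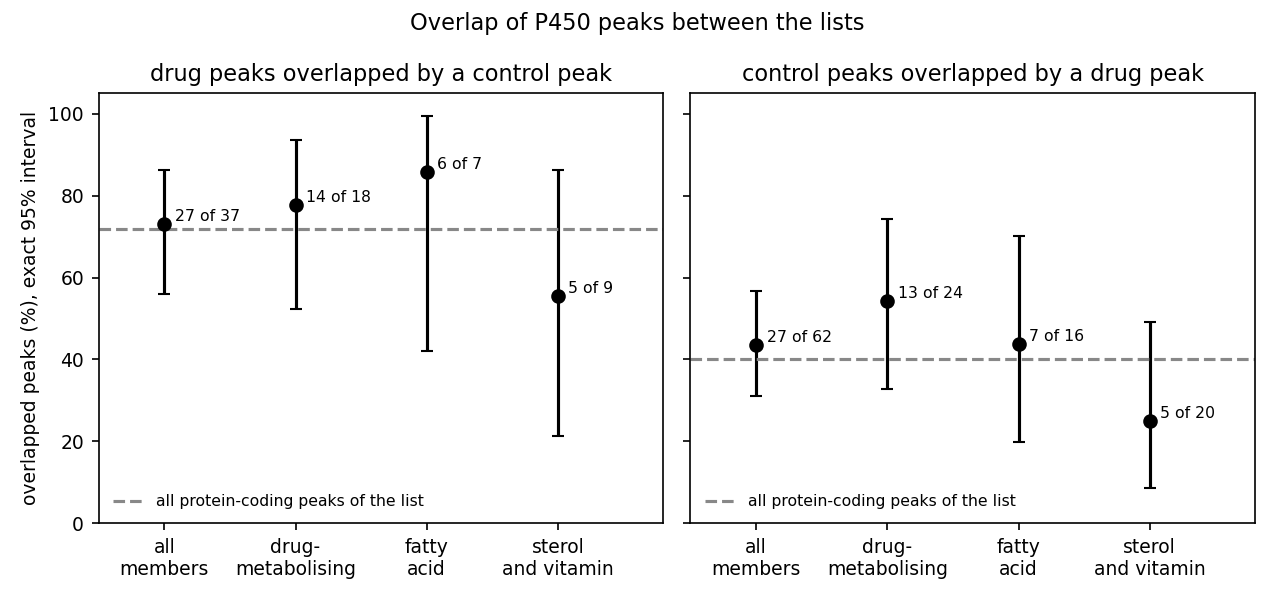
The share of P450 peaks overlapped by the other list (y, percent) is shown for all members and 3 groups of genes, for drug peaks at left and control peaks at right. Points carry exact 95% intervals for counting error, and the dashed lines are the shares of all protein-coding peaks, 71.9% and 40.2%. All intervals cross the dashed line of their panel.

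CYP1A1, the classical target of the aryl hydrocarbon receptor that oxidises polycyclic aromatic hydrocarbons, had the most drug peaks of any member, 4, all of them with a control partner. At its start the control list held a single peak of 1141 bp with a score of 460, and the drug list held 2 narrower peaks inside or across that span, of 200 bp with a score of 60 and of 298 bp with a score of 68. The peak upstream, 5644 bp before the start in the drug list, scored 91 in drug cells and 405 in control cells. The peak in the 3′UTR scored 39 in drug cells and 60 in control cells. CYP1A2, the hepatic caffeine oxidase that lies beside CYP1A1 in opposite orientation, had 1 peak in each list, 3507 bp before its start and in an Alu repeat by the authors' annotation, at 139 in drug cells and 213 in control cells. CYP1B1, the extrahepatic member of the family, had a promoter peak at 58 in control cells, 761 bp before the start, with none in the drug list.

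In family CYP2, peaks lay outside the promoter in most cases. CYP2B6, which is inducible by phenobarbital, had 1 peak 1751 bp before its start in the drug list, which scored 114 in drug cells and 246 in control cells. CYP2W1, known for expression in tumours, had its highest peak inside the neighbouring gene CHLSN, about 10 kb from the CYP2W1 start, at 145 in drug cells and 477 in control cells. Another shared peak in CHLSN scored 43 in drug cells and 98 in control cells, and the peaks in the body of CYP2W1, at 41 in drug cells and at 46 and 26 in control cells, did not overlap. CYP2S1, an extrahepatic enzyme, had a shared peak 16929 bp before its start in the drug list that scored 137 in drug cells and 513 in control cells. Its second shared peak scored 26 in drug cells and 59 in control cells, and 4 more peaks were in the control list alone, its promoter peak at 29 and others at 79, 17 and 36. CYP2F1, a lung enzyme, had an exon peak at 59 in drug cells and 190 in control cells and a peak on a CpG island at 74 in drug cells and 66 in control cells, with an intron peak at 39 in drug cells alone.

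The remaining drug-metabolising genes had few peaks. CYP2C18 had a shared peak 1717 bp before its start in the drug list, at 63 in drug cells and 89 in control cells, and single peaks at 15 in drug cells and 123 in control cells. CYP2A13, a respiratory enzyme, had 1 drug peak at 15 with no control peak. CYP2E1, the ethanol-inducible enzyme, had 1 control peak at 91, on a CpG island about 7 kb before its start, with no drug peak. CYP3A5 had 1 control peak at 88 near its start, which also touched ZSCAN25, with no drug peak. The 9 drug-metabolising genes with no peak in either list were CYP2A6, CYP2A7, CYP2C19, CYP2C8, CYP2D6, CYP3A4, CYP3A43, CYP3A7 and the readthrough gene CYP3A7-CYP3A51P. CYP3A4 is the most abundant drug-metabolising P450 of adult liver, and its 218 kb cluster with 4 other genes held 0 drug peaks and 1 control peak.

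**Figure D5:**
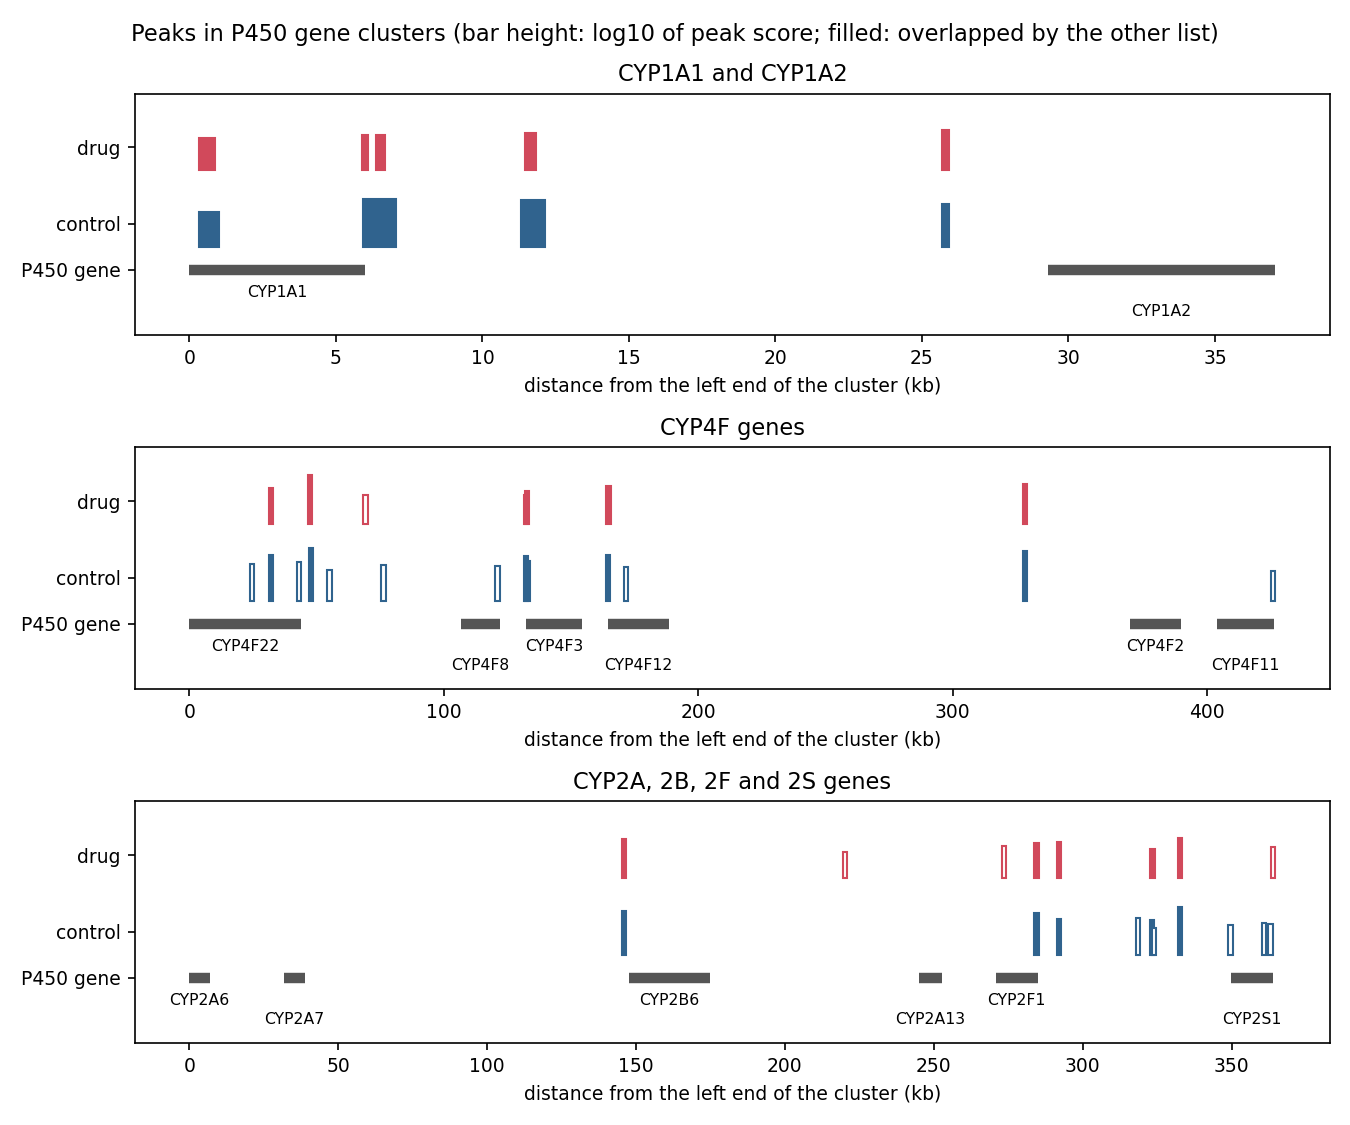
Peaks in 3 clusters of P450 genes are drawn at their distance in kb from the left end of the cluster, drug above control, with bar height on a log10 scale of the authors' score and P450 genes as grey bars. Filled bars were overlapped by the other list. All 5 drug and 4 control peaks of the CYP1A cluster are filled, while the CYP4F cluster has 6 filled of 7 drug peaks and 6 filled of 13 control peaks.

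The clusters spanned regions of unequal length, and the peak density over all regions was not computed. The 37.1 kb of the CYP1A cluster held 5 drug and 4 control peaks, every one overlapped by the other list. The 364 kb of the CYP2A, CYP2B, CYP2F and CYP2S cluster held 8 drug peaks, 5 of them overlapped, and 10 control peaks, 5 of them overlapped. The 426 kb of the CYP4F cluster held 7 drug and 13 control peaks, among them a shared one named for the non-coding gene UCA1 that scored 137 in drug cells and 708 in control cells. The 351 kb of CYP4A11, CYP4A22, CYP4B1, CYP4X1 and CYP4Z1 held 0 drug and 0 control peaks. The 17.1 kb of CYP26A1 and CYP26C1 held 0 drug and 3 control peaks, none of them overlapped, or 17.6 control peaks per 100 kb. Per 100 kb the CYP1A cluster held 13.5 drug and 10.8 control peaks. The CYP2A, CYP2B, CYP2F and CYP2S cluster held 2.20 drug and 2.75 control peaks, and the CYP4F cluster 1.64 drug and 3.05 control peaks.

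Among the fatty acid genes the CYP4F members, which hydroxylate the ends of fatty acids and eicosanoids, carried most of the peaks. CYP4F12 had a start peak at 101 in drug cells and 361 in control cells, and a control intron peak at 51. CYP4F3, which inactivates leukotriene B4, had a pair of promoter peaks in each list. The outer one scored 24 in drug cells and 316 in control cells, and the inner one 43 in drug cells and 132 in control cells. A further control peak named for CYP4F3, at 56 in the 3′UTR of CYP4F8, had no drug partner. CYP4F22, needed for the acylceramides of the skin barrier, had the highest peak of the class, about 47 kb past its start and beyond its end, at 582 in drug cells and 1130 in control cells. Its exon peak scored 74 in drug cells and 365 in control cells, and it had 3 more peaks in the control list alone, at 53, 88 and 112. CYP4F8 had a drug peak at 26 and control peaks at 30 and 76 that did not overlap it. CYP4F11 had a control peak at 26 in its 5′UTR with no drug peak. CYP2J2, which makes epoxides of arachidonic acid, had 1 intron peak with the same limits in both lists, 239 bp wide, at 324 in drug cells and 740 in control cells. It was the single P450 control peak of 62 with the limits of a drug peak, where 0.703% of all protein-coding control peaks had such limits. CYP2U1, a fatty acid hydroxylase of thymus and brain, had a promoter peak at 165 in the control list and none in the drug list. The 6 fatty acid genes with no peak in either list were CYP4A11, CYP4A22, CYP4B1, CYP4F2, CYP4X1 and CYP4Z1.

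Peaks under their own names were found at 3 of the 12 sterol genes, CYP46A1, CYP11A1 and CYP17A1, and by position CYP39A1 had the start peak annotated to SLC25A27. CYP46A1, the cholesterol hydroxylase of brain, had a promoter peak at 394 in drug cells (rank 1727, the top 5.90% of the list) and at 1249 in control cells (rank 1535, the top 3.08%). Its second control peak, 46447 bp past the start and beyond the gene's end, scored 322 and had no drug partner. CYP11A1, which cuts the cholesterol side chain to begin steroid synthesis, had 1 promoter peak of 200 bp at 26 in drug cells and none in control cells. CYP17A1, the steroid hydroxylase and lyase, had control peaks at 58 in its own intron and at 19 in WBP1L, and none in drug cells. The genes of bile acid synthesis CYP7A1, CYP8B1, CYP7B1 and CYP27A1, the adrenal genes CYP11B1, CYP11B2 and CYP21A2, and CYP19A1, the aromatase, had no peak under their names in either list, nor did CYP39A1. CYP19A1 held 1 drug peak in an intron that was annotated to MIR4713, at 53, with no control partner.

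Among the vitamin genes CYP2R1 alone had a start peak scoring above 100 in either list. CYP26C1, a retinoic acid hydroxylase, was named for the highest-scoring P450 peak of both lists, which lay outside the gene, in an Alu repeat in an intron of EXOC6, 28642 bp before the CYP26C1 start in the drug list, with a score of 3309 in drug cells (rank 95, the top 0.324%) and of 7034 in control cells (rank 82, the top 0.164%). CYP26A1, the main retinoic acid hydroxylase, had 3 control peaks near its start, at 51, 38 and 24, and none in drug cells. CYP26B1 had a drug peak at 36 and, in EXOC6B, a control peak at 56, which did not overlap. CYP2R1, the main liver enzyme of the opening hydroxylation of vitamin D, had a start peak in both lists that also touched PDE3B, at 419 in drug cells and 1271 in control cells. Its CpG island peak about 13 kb upstream scored 72 in drug cells and 641 in control cells, and unpaired peaks scored 43 in drug cells and 42 in control cells. CYP27B1, which makes the active form of vitamin D, had 3 control peaks in its body, at 154, 145 and 40, and none in drug cells. CYP24A1, which breaks vitamin D down, had a shared peak about 50 kb from its start at 118 in drug cells and 519 in control cells, and a control peak at 45. CYP27C1, a retinoid desaturase of skin, had a drug promoter peak at 67 and control peaks at 50, 121 and 57, none overlapping. The orphan CYP20A1, whose substrate is not known, had a start peak at 299 in drug cells and 1051 in control cells, a shared peak 12.7 kb upstream at 39 in drug cells and 156 in control cells, and an intron peak at 15 in drug cells alone.

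Start peaks at genes that serve the P450 enzymes were read against the 40.3% of all protein-coding genes with one in drug cells and the 49.3% in control cells, and no difference between lists was tested. Of 7 electron donors, 6 had a peak within 1 kb of the start in drug cells and 7 in control cells. POR, the reductase that supplies microsomal P450 enzymes, scored 589 in drug cells and 1724 in control cells, CYB5B scored 352 in drug cells and 1136 in control cells, and FDXR, of the mitochondrial chain, 272 in drug cells and 930 in control cells. Of 8 genes of haem synthesis, 5 had a start peak in drug cells and 6 in control cells, the highest at PPOX with 642 in drug cells and 1599 in control cells. ALAS1, the rate-limiting enzyme of that pathway, scored 50 in drug cells and 98 in control cells. Of 18 transcriptional regulators of P450 genes, 8 had a start peak in drug cells and 12 in control cells. The aryl hydrocarbon receptor gene AHR scored 413 in drug cells and 1169 in control cells, and its partner ARNT 778 in drug cells and 1867 in control cells. NR1I2, which encodes PXR, had no start peak in either list. NR1I3, which encodes CAR, and VDR, the vitamin D receptor gene, had one in control cells alone, at 56 for NR1I3 and 51 for VDR. Other nuclear receptor genes had one in both lists. RARA scored 259 in drug cells and 775 in control cells, NR5A2 207 and 563, and HNF4A 151 and 425. NR0B2 scored 130 in drug cells and 470 in control cells, and NR1H3 82 and 272. NR1H4, NR5A1, PPARA and RXRA had no start peak in either list. CYP51A1, the sterol demethylase outside the member rule, had a start peak at 275 in drug cells and 760 in control cells, TBXAS1 had no peak, and PTGIS had none near its start.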

How the data were processed

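CUT&Tag was run on PLC8024 cells with 1 library per group, per the labels. The files are annotated peak lists: each row has a peak's position, a score, and the nearest gene with class, distance and gene type, all as deposited by the authors, on hg38 per the submitters' processing notes. The aligner, peak caller and its settings are not given in the sources used here. Under the MACS2 convention, 10 times the −log10 q, the lowest deposited score of 13 would be a q of 0.0501. Read depth is unknown, since the lists hold no counts. Of the control list, 1 row was not analysed here.

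Peaks were matched to 55 RefSeq symbols and between lists by at least 1 shared base in Python 3.11.15 with pandas 2.3.3, numpy 2.4.6 and scipy 1.17.1, after the overlap code was tested on simulated data. Figures were drawn with matplotlib 3.10.9. Promoter windows were 300 bases, and motifs were counted in the 250 before the start. Named genes are every member with a promoter-class peak or one within 1 kb of its start, every member with peaks in both lists, and the 3 highest-scoring members of each class in each list; in the other lists up to 3 were named by score. ALAS1, AHR, the nuclear receptor genes and the marker genes with and without start peaks were named for their roles after their values were seen. The values of 1 member are not reported here, although it is in the counts. The members, classes and lists were chosen with earlier results of these data known. Peaks were called in each library separately, as far as the separate lists show. Alternatives were other score minimums, overlap rules, distance limits, list lengths and class definitions.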

Additional observations from a re-analysis of the deposited data

How the results depend on the processing

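Of 58 recomputed values over 9 alternative settings, 52 stayed within 1.5 times the reported count or, for a share, inside its interval, and 6 moved. With scores of at least 50, the drug list held 21 P450 peaks instead of 37, and 95.2% of them were overlapped by a control peak instead of 73.0%. With the control list shortened to the length of the drug list by score, control P450 peaks numbered 35 instead of 62, 65.7% were overlapped by a drug peak instead of 43.5%, and at sterol and vitamin genes 55.6% instead of 25.0%. With peaks assigned by RefSeq gene body and the 5 kb before it, control P450 peaks numbered 40. Overlap shares of all protein-coding peaks were not computed under the alternative settings, so whether other genes shifted alike is not known. The share at drug-metabolising genes stayed above that at sterol and vitamin genes in all 9 alternatives, against 29.2 points as reported. The gap ran from 9.60 points (gene body) to 37.5 points (nearby peaks counted as shared). The alternatives reuse largely the same few peaks, so this agreement is no separate support for a class difference. By gene body 6 of 14 peaks (17.7 to 71.1) were overlapped at drug-metabolising genes and 4 of 12 (9.92 to 65.1) at sterol and vitamin genes. No paired analysis was possible because each group has 1 library. With depth unknown, a peak in 1 list alone cannot be told apart from a peak that fell under the other list's score minimum, and a shallower drug library cannot be told apart from fewer bound sites.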

Other observations

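P450 pseudogenes, which were left out of the members, had 3 peaks in drug cells over 3 genes and 11 in control cells over 4 genes. The whole lists held 29283 drug and 49854 control peaks, and counts and overlap shares for all pseudogenes were not computed. CYP2T1P, which lies beside the CYP2A genes on chromosome 19, had 1 peak in drug cells, at a score of 61, and 7 in control cells, the highest at 304, and these were the single overlapping pair. The other drug peaks lay at CYP4F62P and CYP4F30P, both at 51. Reads of near-identical P450 copies cannot be told apart here.

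Some peaks in P450 gene bodies carried the name of a gene outside the members, 5 in drug cells and 2 in control cells. Besides the CYP39A1, CYP4V2 and CYP19A1 peaks reported above, they were a drug peak at 15 in CYP20A1 named for ABI2, and in CYP2S1 a drug peak at 36 and a control peak at 34 named for AXL, which did not overlap.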
